A study of Mus musculus with 6 samples.

Results

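Zbp1, Tmem173 (which encodes STING), Ripk1, Ripk3, Mlkl, Casp8, Fadd and Cflar carry nucleic acid sensing and the necroptotic death pathway with its brakes. Transcripts of these 8 genes, among 54446 listed, were examined in RNA sequencing libraries of mouse intestinal epithelium. The 8 were chosen by function and on their expression in these same libraries, whose control and knockout values were known when the list was drawn up. Differences between the genotypes in these 8 genes are therefore given as a description, and support nothing. How many of them passed the tests run over all genes is stated once beside the share of all genes, as a count from which nothing is read. The controls were Prkci flox/flox mice (n = 3) and the knockouts were Prkci flox/flox mice that also carried Villin-CRE (n = 3), each library from a different mouse aged 3 to 4 months. Both groups carried the floxed alleles, and the controls lacked Cre. Villin drives Cre in epithelial cells, so other cell types in the preparation keep Prkci. Epithelium was released from the mucosa by EDTA washes and pressure, and the tissue was jejunum by the sample titles and jejunum to ileum by the series text. Prkci encodes the atypical protein kinase C iota/lambda of the apical polarity complex, and the series asked how its loss in enterocytes alters their transcripts.

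Zbp1 binds nucleic acids in the Z conformation, and STING responds to the cyclic dinucleotide that the DNA sensor cGAS makes. Zbp1 and the kinase Ripk1 can each engage the kinase Ripk3 through a shared interaction motif, the RHIM. Ripk3 then phosphorylates Mlkl, a pseudokinase that permeabilises the plasma membrane, the event called necroptosis. Caspase-8, its adaptor Fadd and the caspase-like protein cFLIP (Cflar) hold this route in check. In the gut, loss of Casp8 or Fadd in epithelial cells is known to cause necroptosis of Paneth cells and enterocytes. Zbp1 and Mlkl are known interferon-inducible genes.

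The RHIM links 3 of the 8 genes, and its coding sequence is shown because it is the feature through which Zbp1, Ripk1 and Ripk3 meet. Each line gives 60 bases of coding sequence from GENCODE mouse release 21 transcripts (mm10), 5′ to 3′ on the gene's strand, with the 4 codons of the RHIM core in capitals. Zbp1 has 2 such cores, in exons 4 and 5 of 8, at codons 192 to 195 (chr2:173212142-173212153, minus strand) and 248 to 251 (chr2:173210609-173210620). The core of Ripk1 lies in exon 10 of 11 at codons 528 to 531 (chr13:34030078-34030089, plus strand). That of Ripk3 lies in exon 10 of 10 at codons 448 to 451 (chr14:55785305-55785316, minus strand).
Zbp1, first core: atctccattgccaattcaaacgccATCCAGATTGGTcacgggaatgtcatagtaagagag
Zbp1, second core: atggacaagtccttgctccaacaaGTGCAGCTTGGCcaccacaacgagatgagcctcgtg
Ripk1: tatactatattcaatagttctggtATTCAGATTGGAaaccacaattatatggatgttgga
Ripk3: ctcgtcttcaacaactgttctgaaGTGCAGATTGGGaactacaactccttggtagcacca
Over the 12 bases of the core, the first Zbp1 core matched Ripk1 at 10 and Ripk3 at 9, and the second matched Ripk1 at 8 and Ripk3 at 10. Over the whole 60 bases, Ripk1 and Ripk3 were the closest pair, with 32 identical bases.

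Total counts ran from 22453798 to 23008047 in the controls and from 18972906 to 26687856 in the knockouts. CPM below is the count per 1000000 counts after scaling between libraries. Prkci stood at 44.0 to 46.9 CPM in controls and 14.6 to 21.5 CPM in knockouts, without overlap. Knockout replicate 1 lay nearer to the controls (−32 to −25) than to the other knockouts on the first principal component of the 2000 most variable genes (60.4% of variance), at −16.0 against 56.9 and 44.8. By Xist and Ddx3y counts, control replicate 3 and knockout replicates 2 and 3 came from females, which goes against the sex in the series text for 3 of the 6 mice. The other 3 libraries, knockout replicate 1 among them, came from males by the same counts. Loci of ribosomal RNA repeats took 2.16% to 2.91% of counts in controls and 4.89% to 5.91% in knockouts, and the part of this difference in the results was not tested. Because each library holds a mixture of cells, fewer cells of a type and less RNA per cell cannot be told apart.

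Both sensors were higher in every knockout than in any control. Zbp1 (ENSMUSG00000027514.14, chromosome 2, 173206612 to 173218923, minus strand) measured 21.8, 22.6 and 28.0 CPM in control replicates 1 to 3 and 48.0, 143 and 85.5 CPM in knockout replicates 1 to 3. The controls lay close together, while the knockouts spread widely, with replicate 1 lowest and replicate 2 highest. The means were 24.1 ± 3.37 and 92.2 ± 47.9 CPM (SD, n = 3 each), and the log2 fold change was 1.93 (SE 0.37). By the sex read from the counts, the 2 female knockouts measured 143 and 85.5 CPM and the 1 female control 28.0 CPM, and the 1 male knockout measured 48.0 CPM and the 2 male controls 21.8 and 22.6 CPM, too few for a comparison within a sex. With sex as a covariate the log2 fold change was 1.57 (SE 0.29).

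Tmem173 (ENSMUSG00000024349.9, chromosome 18, 35733678 to 35740554) was scarce. It had 35, 39 and 41 counts in the controls and 73, 201 and 146 in the knockouts. These counts correspond to 1.54, 1.62 and 1.72 CPM in controls and 3.69, 8.76 and 5.85 CPM in knockouts. The knockouts took the same order as for Zbp1, with replicate 1 nearest to the controls. The log2 fold change was 1.90 (SE 0.34). On summed counts divided by the summed scaled library sizes, the knockout to control ratio was 3.81, with an exact 95% interval for counting error alone of 3.09 to 4.72, against 3.89 (3.69 to 4.11) for Zbp1. PCR copies cannot be separated here from independent molecules, and these intervals cover counting error only, not the spread between mice.

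**Figure D1:**
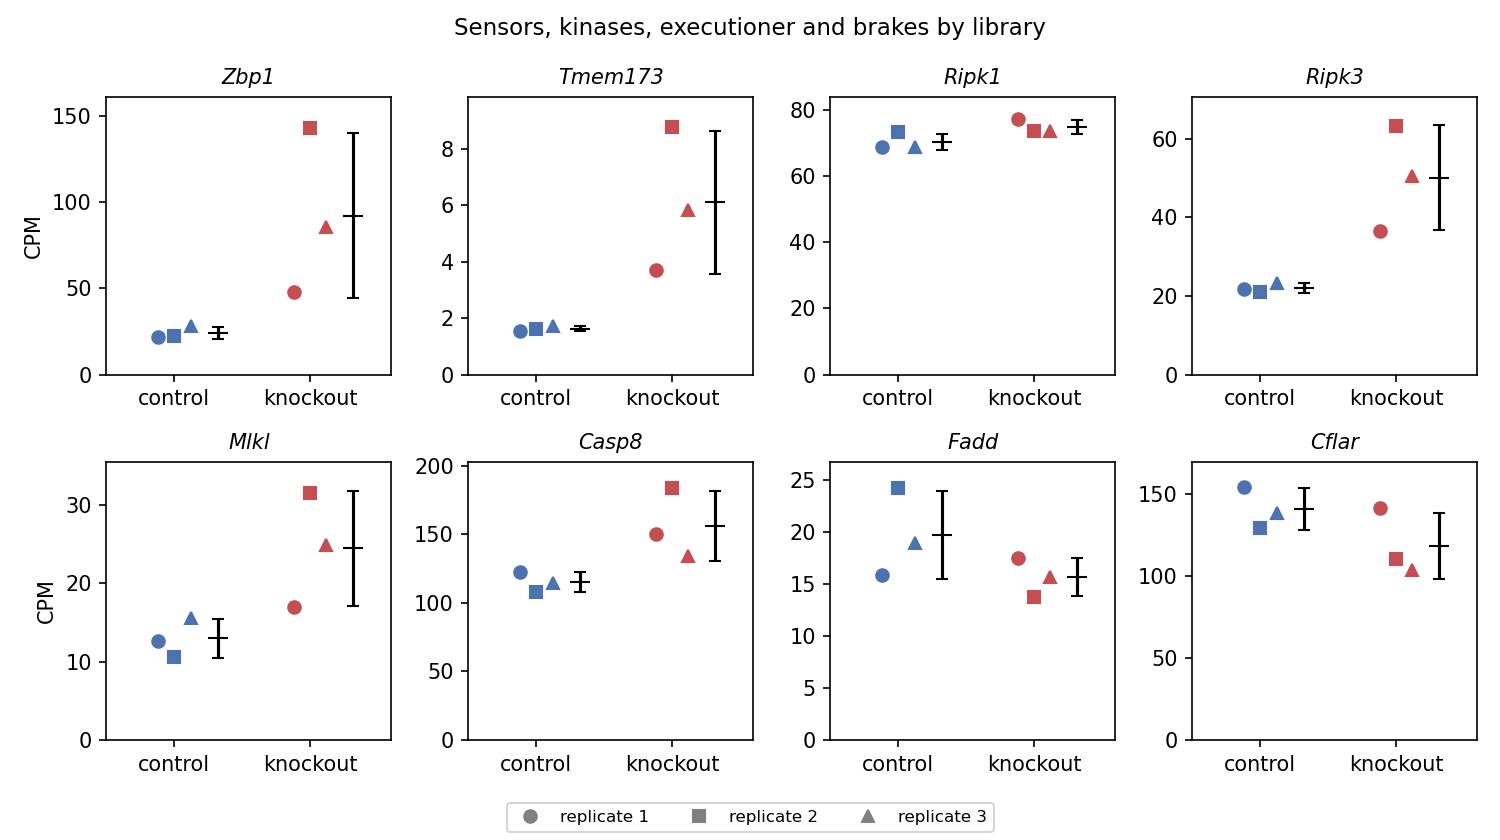
CPM (y axis, from 0) of the 8 genes in each control (blue) and knockout (red) library, with marker shape for the replicate number and black bars for the mean ± SD (n = 3). Zbp1, Tmem173 and Ripk3 spread widely among the knockouts, with replicate 1 lowest and replicate 2 highest, while Ripk1 lies between 68.8 and 77.3 CPM in all 6 libraries.

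The 2 RHIM kinases differed from each other. Ripk3 (ENSMUSG00000022221.14, chromosome 14, 55784995 to 55788865, minus strand), the kinase that commits a cell to necroptosis, measured 21.7, 21 and 23.4 CPM in controls and 36.6, 63.2 and 50.5 CPM in knockouts. The controls were tight (22.02 ± 1.21, SD, n = 3), every knockout exceeded them, and the log2 fold change was 1.19 (SE 0.20). Ripk1 (ENSMUSG00000021408.15, chromosome 13, 34002363 to 34037147, plus strand), a kinase and scaffold that can promote survival or death, measured 68.8, 73.25 and 68.9 CPM in controls and 77.3, 73.6 and 73.6 CPM in knockouts. Its groups did not overlap, yet the nearest libraries were almost equal and the log2 fold change was 0.09 (SE 0.09). Of the Ripk1 exon bases, 2.89% are shared with Serpinb6a on the opposite strand, a gene at 442 CPM in controls and 476 CPM in knockouts. The part of those reads in the Ripk1 count was not tested.

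Mlkl (ENSMUSG00000012519.14, chromosome 8, 111311797 to 111338177, minus strand), the executioner, measured 12.7, 10.6 and 15.5 CPM in controls and 16.9, 31.5 and 24.9 CPM in knockouts. The groups did not overlap, but knockout replicate 1 lay 1.31-fold above the control mean, against 2.44-fold and 1.92-fold for replicates 2 and 3. The log2 fold change was 0.92 (SE 0.25). For Zbp1 the same 3 multiples of the control mean were 1.99, 5.93 and 3.54, and for Ripk3 they were 1.66, 2.87 and 2.30.

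Among the brakes, Casp8 was higher in the knockouts, whereas Fadd and Cflar overlapped between the genotypes. Casp8 (ENSMUSG00000026029.14, chromosome 1, 58795374 to 58847503, plus strand), the protease that cleaves the RIP kinases, measured 123, 108 and 114 CPM in controls and 150, 184 and 134 CPM in knockouts. All 3 knockouts lay above the controls, and the log2 fold change was 0.44 (SE 0.14). Fadd (ENSMUSG00000031077.7, chromosome 7, 144577318 to 144582463, minus strand), the adaptor that brings Casp8 into the complex, measured 15.9, 24.3 and 18.96 CPM in controls and 17.6, 13.8 and 15.7 CPM in knockouts. Control replicate 1 lay among the knockouts, and the log2 fold change was −0.33 (SE 0.19). Of the Fadd exon bases, 6.12% are shared with the antisense gene Faddos, which did not pass the filter on low counts.

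Cflar (ENSMUSG00000026031.15, chromosome 1, 58711508 to 58758884, plus strand), whose product pairs with caspase-8 and limits its activity, is the neighbour of Casp8. The 2 genes lie 36489 bases apart on the same strand with 0 protein-coding genes between them. Cflar measured 154, 129 and 138 CPM in controls and 141, 110 and 103 CPM in knockouts. Knockout replicate 1 lay within the control range and the other knockouts below it, with a log2 fold change of −0.25 (SE 0.15). The neighbours thus had fold changes of opposite sign.

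All 8 genes passed the filter on low counts. By edgeR's quasi-likelihood test with Benjamini-Hochberg adjustment, 0 of the 8 passed the threshold of 0.05 over the 15068 genes tested, where 0.0531% of all genes passed as higher and 0.00664% as lower. With the replicate number as a block, 0 genes passed in place of 9, and 5 of the 8 members were again higher at an unadjusted p. At an unadjusted p below that threshold, 5 of the 8 were higher and 0 lower, against 9.32% and 7.09% of all genes. By the DESeq2 Wald test 4 passed, all higher, where 5.55% of all genes passed in either direction. By edgeR without knockout replicate 1, 4 passed as higher and 1 as lower, where 17.5% of all genes passed in either direction. In 6 of the 8 genes the knockouts lay wholly above the controls, as did 10.0% of all genes, and in 0 they lay wholly below, as did 11.7%. The median log2 fold change was 0.68 over the 8 genes and 0.01 over all genes tested. Since these genes were picked with this comparison in view, these counts test nothing.

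Ratios of counts within a library do not depend on the scaling between libraries, and they put the 8 genes in relation to each other. The count of Ripk3 relative to Casp8 was 0.177, 0.194 and 0.204 in controls and 0.243, 0.343 and 0.377 in knockouts, so that every knockout was above every control. Cflar relative to Casp8 was 1.25, 1.19 and 1.21 in controls and 0.938, 0.598 and 0.770 in knockouts. Cflar thus had more counts than Casp8 in each control and fewer in each knockout. The difference in mean log2 ratio was 0.72 for Ripk3 to Casp8 and −0.69 for Cflar to Casp8, beside SDs within a group of 0.25 and 0.23.

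The RHIM partners shifted relative to each other as well. Ripk1 had 3.17, 3.49 and 2.95 counts per Ripk3 count in controls and 2.11, 1.16 and 1.46 in knockouts. Zbp1 had 1.01, 1.075 and 1.20 counts per Ripk3 count in controls and 1.31, 2.27 and 1.69 in knockouts. Neither ratio overlapped between the genotypes. Mlkl relative to Ripk3 differed least, at 0.584, 0.506 and 0.665 in controls and 0.462, 0.499 and 0.493 in knockouts, where the highest knockout and the lowest control were almost equal.

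**Figure D2:**
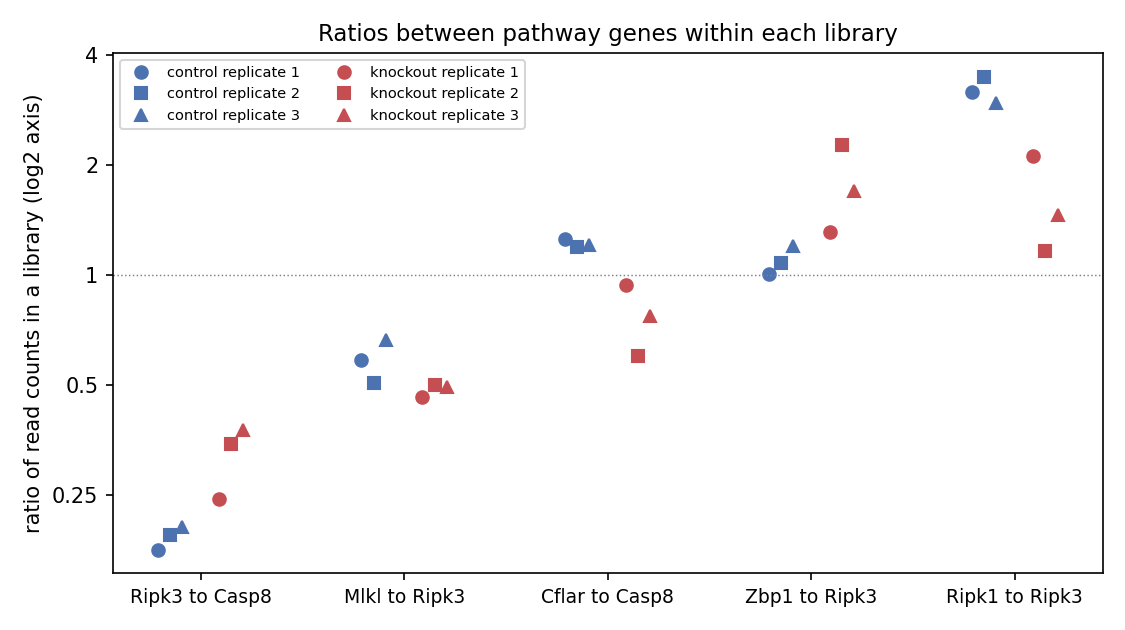
Ratio of read counts of 2 genes within each library (y axis, log2 scale) for 5 pairs, with controls in blue, knockouts in red and marker shape for the replicate. Cflar to Casp8 is above 1 in the 3 controls and below 1 in the 3 knockouts, and Ripk1 to Ripk3 runs from 2.95 to 3.49 in controls and from 1.16 to 2.11 in knockouts.

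To compare genes with each other, CPM was divided by the length of all annotated exons merged, in kilobases. Tmem173 was not included in this comparison. On this scale the control order was Casp8 (39.8 ± 2.55), Cflar (11.1 ± 0.995), Ripk3 (9.61 ± 0.528), Ripk1 (8.43 ± 0.303), Zbp1 (6.84 ± 0.955), Mlkl (5.62 ± 1.07) and Fadd (5.05 ± 1.09 CPM per kilobase, SD, n = 3). The neighbours Cflar and Ripk3, Zbp1 and Mlkl, and Mlkl and Fadd overlapped between control libraries, while the other neighbours did not. In knockouts Zbp1 came second (26.1 ± 13.6) behind Casp8 (54.0 ± 8.80), followed by Ripk3 (21.9 ± 5.80), Mlkl (10.6 ± 3.18), Cflar (9.32 ± 1.59), Ripk1 (8.97 ± 0.260) and Fadd (4.02 ± 0.480 CPM per kilobase, SD, n = 3). There, Zbp1 and Ripk3, Mlkl and Cflar, and Cflar and Ripk1 overlapped. Of these 7 genes, the executioner Mlkl thus had the lowest mean but that of Fadd in controls. Its mean in knockouts ranked above those of Cflar, Ripk1 and Fadd. In knockout replicate 1, however, Mlkl stood at 7.34, below Cflar at 11.1 and Ripk1 at 9.27 CPM per kilobase.

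The order depended on the length used, since Cflar has 13 annotated transcripts and 12669 bases of merged exon. With the length of the transcript that has the longest coding sequence, a choice made after seeing the data, Cflar led in controls at 79.3 CPM per kilobase, ahead of Casp8 at 62.2 and Zbp1 at 12.1. In knockouts, Cflar came second at 66.7 CPM per kilobase on that length, behind Casp8 at 84.5 and ahead of Zbp1 at 46.4, Ripk3 at 26.5 and Mlkl at 12.2, so that Mlkl no longer ranked above Cflar. Casp8 led in knockouts on both scales, and Fadd was lowest in both groups on both.

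**Figure D3:**
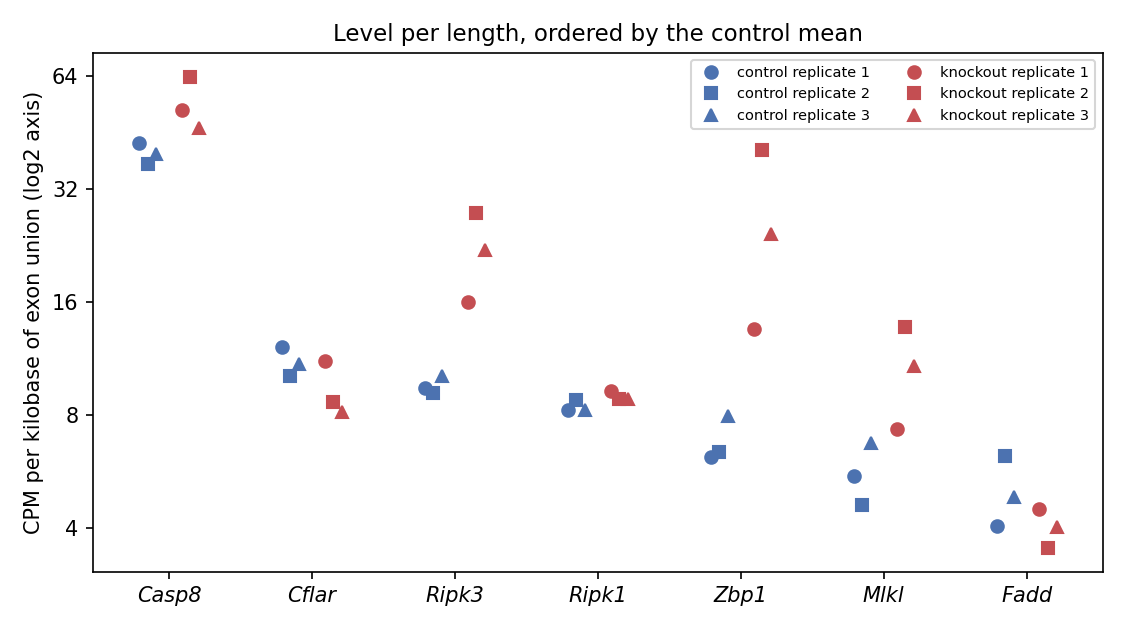
CPM per kilobase of merged exons (y axis, log2 scale) of 7 genes in each control (blue) and knockout (red) library, ordered by the control mean. Zbp1 reaches 13.6 to 40.6 CPM per kilobase in knockouts, while Ripk1 stays between 8.25 and 9.27 in all 6 libraries.

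The genes most alike in pattern to Zbp1, Tmem173, Ripk3 and Mlkl were searched among those with a mean of at least 10 CPM, by Pearson's r of log2 CPM over the 6 libraries. For Zbp1, Ripk3 ranked first of 7976 genes (r = 0.994), followed by Trabd (0.992) and the glucose transporter gene Slc2a1 (0.991). For Tmem173, Ripk3 again ranked first (0.998), with the semaphorin receptor gene Plxna1 (0.994) and Zbp1 (0.994) behind it. For Ripk3 the closest were Zbp1, Plxna1 (0.994) and Spats2l (0.993). For Mlkl they were Tinagl1 (0.995), Pgs1 (0.991) and Ift22 (0.990), and no member was among its first 3. These values describe 6 libraries that fall into 2 genotypes, with knockout replicate 2 the highest in each of these genes, and 122 genes had an r above 0.95 with Zbp1. The members were chosen with their values in these libraries known, so their ranks among each other test nothing.

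Promoters of 6 of the 8 genes were found in the RefSeq table for GRCm38.p6, which gives 250 bases before to 50 after each start; Zbp1 and Tmem173 had no entry. On both strands, 3 motifs were searched. These were the interferon-stimulated response element, ISRE (GAAANNGAAA), the gamma-activated site, GAS (TTCNNNGAA), and a kappaB element (GGGNNTTTCC). Of 32851 promoters of that length, 3.44% held the ISRE letters, 8.30% the GAS letters and 1.63% the kappaB letters. Among the 8 genes, matches lay only in the second of the 2 listed Ripk1 promoters and in that of Cflar, whose log2 fold changes were 0.09 and −0.25. The Ripk3, Mlkl, Casp8 and Fadd windows held 0 matches. The Casp8 window, chr1:58802252-58802551, lay inside the annotated gene, which begins at 58795374 and whose 5′ end was not searched. The Ripk3 window is shown for its 0 matches beside the fold change of the gene, and the Ripk1 and Cflar windows for theirs, with matches in capitals, 5′ to 3′ on the gene's strand.
Ripk3, chr14:55788808-55789107, minus strand: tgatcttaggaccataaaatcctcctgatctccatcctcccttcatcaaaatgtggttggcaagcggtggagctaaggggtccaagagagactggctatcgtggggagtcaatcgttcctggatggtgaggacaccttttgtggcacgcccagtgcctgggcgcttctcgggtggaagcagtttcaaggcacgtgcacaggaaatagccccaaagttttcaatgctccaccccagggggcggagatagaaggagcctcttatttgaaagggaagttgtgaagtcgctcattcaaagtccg
Ripk1, second promoter, chr13:34002624-34002923, plus strand: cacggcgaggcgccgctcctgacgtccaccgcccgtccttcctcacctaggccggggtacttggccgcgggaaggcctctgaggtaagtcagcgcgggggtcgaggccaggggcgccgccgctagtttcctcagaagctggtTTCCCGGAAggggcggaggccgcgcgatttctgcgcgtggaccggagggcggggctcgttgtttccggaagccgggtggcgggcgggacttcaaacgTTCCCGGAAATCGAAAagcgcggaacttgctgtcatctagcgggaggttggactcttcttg
Cflar, chr1:58711241-58711540, plus strand: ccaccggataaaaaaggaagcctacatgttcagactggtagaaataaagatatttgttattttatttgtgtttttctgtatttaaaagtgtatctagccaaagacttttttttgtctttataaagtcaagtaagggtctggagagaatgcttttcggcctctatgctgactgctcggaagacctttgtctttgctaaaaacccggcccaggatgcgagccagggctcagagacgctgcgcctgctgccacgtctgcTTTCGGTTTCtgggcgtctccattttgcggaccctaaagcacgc
In Ripk1, the ISRE match (GAAATCGAAA, chr13:34002869-34002878) began 5 bases before the start and overlapped a GAS match that began 11 bases before it, and a second GAS match began 108 bases before it. In Cflar, the ISRE match lay on the opposite strand, 6 bases after the start. A match is a run of letters, and 0 matches says only that these letters are not in the window.

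The other genes of these pathways were taken as 79 genes in 4 lists by role, drawn up with earlier results of these libraries known, and were tested over all 15068 genes. For that reason the counts and medians of the lists, set beside all genes, are a description and test nothing about the lists. None of the 75 that passed the filter met the edgeR threshold, the lowest adjusted p being 0.115 (edgeR, Benjamini-Hochberg). In nucleic acid sensing, 8 of 19 tested genes were higher at an unadjusted p and 0 lower, against 9.32% and 7.09% of all genes, and the list's median log2 fold change was 0.42. By DESeq2, 2 of the 19 passed (Enpp1, which degrades the STING ligand cGAMP, and the MAVS regulator Nlrx1), against 5.55% of all genes. Without knockout replicate 1, 7 rose and 1 (Ikbke) fell by edgeR, against 17.5% of all genes called in either direction. The 8 genes higher at an unadjusted p became 2 to 5 when any 1 control was left out, lowest for control replicate 2. Leaving out knockout replicate 1, 2 or 3 gave 12, 4 and 5, with 1 gene lower in the set without knockout replicate 1. Over all genes at an unadjusted p, that set had 2776 higher and 2449 lower of 15470 tested. With any other library left out, 963 to 1361 genes were higher and 566 to 887 lower, of 15448 to 15610 tested. With the replicate block, 9 genes of the list were higher.

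Mb21d1, which encodes the DNA sensor cGAS, measured 0.704, 1.46 and 1.21 CPM in controls and 1.01, 3.40 and 2.60 CPM in knockouts, with overlap (log2 fold change 1.06, SE 0.49). It rested on 16 to 78 counts a library. Ifih1, the RNA sensor MDA5 and the most abundant of the list, stood at 142 ± 9.03 and 190 ± 40.1 CPM, and Ddx58, the RNA sensor RIG-I, at 83.1 ± 8.96 and 97.4 ± 12.7 CPM (SD, n = 3 each). Adar, the RNA editor that removes ligands of Zbp1 and Ifih1, had a log2 fold change of 0.39 (SE 0.14), and Irf7 one of 0.51 (SE 0.19). Downstream of STING, the kinase gene Tbk1 (113 ± 5.64 and 124 ± 4.80 CPM) and its target Irf3 (37.1 ± 1.14 and 36.2 ± 5.36 CPM) had log2 fold changes of 0.14 (SE 0.09) and −0.04 (SE 0.13). Nlrx1 measured 6.07, 6.46 and 5.40 CPM in controls and 8.95, 19.6 and 18.0 CPM in knockouts. Trex1, a DNA exonuclease, had 0 counts in all 6 libraries. For reads that the counter assigns to it, this allows up to 0.120 to 0.152 CPM (3 counts a library). The counter is not known here and overlap of Trex1 with other genes was not examined, so the 0 may not show its level.

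In the list of death receptors, their adaptors and the enzymes that restrain Ripk1, 3 of 32 genes were higher at an unadjusted p and 0 lower, against 9.32% and 7.09% of all genes. Without knockout replicate 1 there were 5 higher and 2 lower, where 2776 and 2449 of all 15470 genes tested were. The 3 became 4 when control replicate 1 was left out, and 2 when control replicate 2 or 3, or knockout replicate 2, was. The median log2 fold change was 0.07. Tnf, the ligand that can start necroptosis through Ripk1, measured 0.484, 0.500 and 0.209 CPM in controls and 1.26, 3.96 and 1.96 CPM in knockouts (5 to 91 counts a library), a log2 fold change of 2.58 (SE 0.54). Its receptor gene Tnfrsf1a measured 148, 135 and 136 CPM in controls and 152, 199 and 176 CPM in knockouts, and every knockout was above the controls. The log2 fold changes were 0.29 (SE 0.23) for the death receptor gene Fas and 0.20 (SE 0.18) for Tlr3, the receptor for double-stranded RNA. Ticam1, the RHIM adaptor of Tlr3, measured 70.5, 78.1 and 71.3 CPM in controls and 70.0, 55.0 and 53.5 CPM in knockouts (−0.30, SE 0.13). Without knockout replicate 1 it fell by 0.44 on the log2 scale (edgeR adjusted p = 0.0176, against 0.310 with all libraries). By Xist and Ddx3y counts, the knockouts left were all female and the controls of both sexes. The part of sex in that set was not tested. In that set 4 genes of the list, Tnf among them, rose and 2 fell by edgeR, against 17.5% of all genes called in either direction. By DESeq2, 2 of the 32 passed, both higher and Tnf among them, against 5.55% of all genes. The ubiquitin enzymes that hold Ripk1 in check had small fold changes, with 0.15 (SE 0.14) for Birc2, 0.26 (SE 0.12) for Birc3, −0.06 (SE 0.13) for Xiap and 0.19 (SE 0.14) for Tnfaip3, which encodes A20. Xiap was the most abundant of the list, at 231 ± 15.3 and 222 ± 28.2 CPM, and Chmp4b, an ESCRT gene of membrane repair, stood at 147 ± 9.05 and 163 ± 14.6 CPM (SD, n = 3 each).

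Of 13 effectors of apoptosis and pyroptosis, 2 were higher and 2 lower at an unadjusted p, against 9.32% and 7.09% of all genes, and the median log2 fold change was 0.01. The 2 higher became 0 when control replicate 3 was left out and 1 when either replicate 2 was. With the replicate block they also became 1. Leaving out knockout replicate 1 gave 3 higher and 3 lower, where 2776 and 2449 of all 15470 genes tested were. Bid, which links Casp8 to mitochondria, measured 13.9, 15.3 and 15.2 CPM in controls and 11.6, 9.76 and 10.9 CPM in knockouts (−0.46, SE 0.13), with every knockout below the controls. Gsdmd, the pore-forming gasdermin of pyroptosis, measured 247, 246 and 230 CPM in controls and 328, 336 and 284 CPM in knockouts (0.39, SE 0.11), with every knockout above them. Ninj1, whose product ruptures the membrane of dying cells, stood at 3.98 ± 1.30 and 4.65 ± 1.35 CPM (SD, n = 3 each). By DESeq2, Casp6 fell and Gsdmd rose, 2 of 13 genes against 5.55% of all genes.

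Of 11 tested interferon regulators, 4 were higher at an unadjusted p and 0 lower, Irf1 and Usp18 among them, against 9.32% and 7.09% of all genes. The same 4 passed by DESeq2, against 5.55% of all genes. At an unadjusted p, 3 were higher when control replicate 1 or 2 was left out. Without knockout replicate 1, 4 were higher and 1 lower, where 2776 and 2449 of all 15470 genes tested were. Irf1 measured 169, 164 and 154 CPM in controls and 220, 314 and 294 CPM in knockouts (0.76, SE 0.15, edgeR adjusted p = 0.115). Irf9 stood at 37.1 ± 4.32 and 35.7 ± 6.07 CPM (SD, n = 3 each). Ifng, the cytokine, was too scarce to be tested, with 1, 2 and 4 counts in controls and 5, 9 and 8 in knockouts, and Ifnb1 had 0 counts in all libraries. The most abundant of the list was the receptor gene Ifngr2, at 323 ± 14.1 and 254 ± 57.4 CPM.

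**Figure D4:**
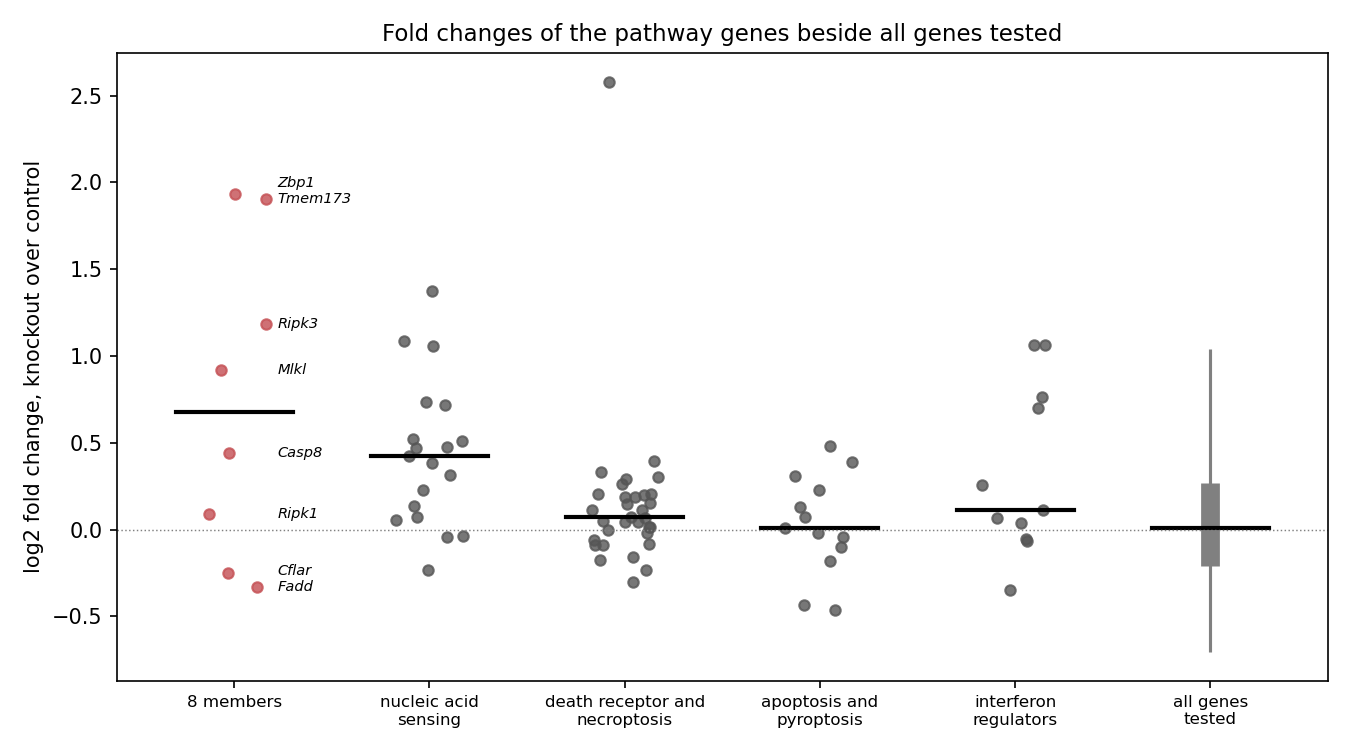
Log2 fold change, knockout over control (y axis), of the 8 genes (red) and of the tested genes of 4 lists (grey), each point 1 gene, with black lines for medians. The bar at the right spans the 25th to 75th percentile of all 15068 genes (−0.21 to 0.27), and its thin line the 5th to 95th (−0.71 to 1.04). Zbp1, Tmem173 and Ripk3 lie above the 95th percentile, and the death receptor and effector lists centre near 0. The 8 genes and the lists were chosen with earlier results of these libraries known, so their place on this axis tests nothing.

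Leukocytes also express Zbp1, Tmem173, Ripk3 and Mlkl, and sums of T cell, macrophage and B cell markers were higher in every knockout than in any control. Enterocyte markers dominated all libraries, with 10 genes summing to 26571 to 30644 CPM in controls and 26348 to 35940 CPM in knockouts. Of these 10, 4 were wholly higher in knockouts and 1 wholly lower, where 10.0% and 11.7% of all genes were. Of 10 T cell markers, 6 were higher in every knockout than in any control, and their sum ran from 192 to 330 CPM in controls and from 385 to 932 CPM in knockouts, highest in knockout replicate 2. Of 10 macrophage and dendritic cell markers (9 tested), 4 were separated likewise, with sums of 15.8 to 17.5 and 32.6 to 47.7 CPM, highest in knockout replicate 1. The same held for 2 of 7 B and plasma cell markers, 2 of 6 endothelial markers (3 tested) and 1 of 9 fibroblast and muscle markers, against 10.0% of all genes. The 7 B and plasma cell markers summed to 30.1 to 130 and 147 to 324 CPM, the 6 endothelial ones to 2.63 to 4.35 and 4.79 to 15.2 CPM, and the 9 fibroblast and muscle ones to 6.64 to 19.8 and 13.7 to 77.9 CPM. Among the 5 neutrophil markers, Ly6g was at 0 in all libraries, and S100a8 and S100a9 were at 0 in all controls. Knockout replicate 2 had the highest Zbp1, Tmem173, Ripk3, Mlkl and Casp8 values, and the highest sums of both the enterocyte and the T cell markers. The macrophage, B cell, endothelial and fibroblast sums were lowest among the knockouts there. The part of these cells in the values of the 8 genes was not tested.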

How the data were processed

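The labels name both poly-A selection and a ribosomal RNA depletion kit. The authors deposited raw counts per gene and library; the submitters' processing notes name STAR 2.5.0a, Trim Galore, FastQC, bcl2fastq 2.17 and the build mm10. The read counter, strand setting and annotation release: not given in the sources used here. Reads of overlapping genes may therefore be shared.

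From the deposited counts, all genes were fitted with edgeR 4.0.16 (R 4.3.3): trimmed-mean scaling, default expression filter (minimum count 10), genotype as sole term, two-sided quasi-likelihood F test, Benjamini-Hochberg adjustment over 15068 genes and a threshold of 0.05. Standard errors (SE) were derived from the fold change and its F statistic. Correlations used log2 CPM with a prior count of 2. The procedure was tested on simulated data. Gene lengths came from GENCODE mouse release 21, whose coordinates matched those of the count table for the genes used, except Tmem173, for which no model was used here.

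The members and lists were chosen with earlier results of these data known. Genes were named by role, whatever their values (all members, Prkci and 27 partners), together with the most abundant gene of each list, the 3 genes most alike to Zbp1, Tmem173, Ripk3 and Mlkl, and any listed gene past the threshold. Some genes under this rule are not reported here. Enpp1, Nlrx1, Ikbke, Ifnb1, Casp6, Usp18, Serpinb6a and Faddos were added after their values were seen.

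To check whether replicate numbers pair the libraries, residuals about each group's mean were correlated, giving 0.117, 0.119 and 0.149 for the same-numbered pairs. Pairs with unlike numbers ran from −0.143 to 0.009. Every same-numbered value exceeds 0.1, so values with the replicate block are given where they move the calls over all genes or a count of a list. No label says what a number marks. Libraries of a group differed beyond sampling noise, with a lowest chi-square per gene of 23.8. Alternatives were DESeq2 size factors, no filter, the DESeq2 1.42.0 Wald test, the replicate block, sex by Xist and Ddx3y, and leaving out each library. A second gene length was added after seeing the data.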

Additional observations from a re-analysis of the deposited data

How the results depend on the processing

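Over all genes, the 9 edgeR calls became 284 without a filter, 836 with DESeq2 and 0 with the replicate block, and ran from 0 to 2700 with 1 library left out, the highest without knockout replicate 1 and 0 without any 1 control or knockout replicate 3. The 4 partner lists, each with 0 calls, also had 0 with the replicate block. Without a filter the counts were 1 for nucleic acid sensing, 1 for death receptors, 0 for effectors and 1 for interferon regulators, and with DESeq2 they were 2, 2, 2 and 4. With 1 library left out they ran from 0 to 8, 0 to 6, 0 to 3 and 0 to 5, and only the set without knockout replicate 1 gave calls. The log2 fold change of Zbp1 ran from 1.49 (without knockout replicate 2) to 2.24 (without knockout replicate 1) over all alternatives, that of Tmem173 from 1.57 to 2.16, that of Ripk3 from 1.00 to 1.37 and that of Mlkl from 0.70 to 1.12. Each of the 8 genes kept its sign under every alternative and moved by less than the SD within a group. The replicate block gave 1.80 for Zbp1 and 1.15 for Ripk3. The ratios within a library also kept their sign with any 1 library left out. Depth limits Tmem173, Mb21d1, Tnf and Ifng, and 3 libraries a group limit all tests. Libraries are separate mice, and what their replicate numbers mark is not known.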
